A study of Homo sapiens with 12 samples.

Results

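The genes of the mitochondrial protein import machinery were followed at the mRNA level in C4.2B prostate cancer cells treated with an AKT inhibitor, an EZH2 inhibitor or both. The members were all protein-coding genes whose symbol starts with TIMM or TOMM followed by a number, together with HSPD1, HSPE1, HSPA9, GRPEL1, PAM16, DNAJC19, PMPCA, PMPCB and CHCHD4. This rule gave 34 genes of the 58735 in the count table. It used names and not measured values. Of the 34, 32 had enough reads to be tested. TOMM20L, a relative of the receptor TOMM20, had 28 reads over all libraries and at most 8 in any library, and TOMM6, a small subunit of the outer membrane pore, had 0 reads in every library, so neither was tested. TOMM6 shares its genomic span with the same-strand gene AL365205.1, which had 550 reads over the 12 libraries.

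C4.2B is a castration-resistant derivative of the LNCaP prostate cancer line and was the only line used here. The study sequenced polyA RNA from 4 arms with 3 libraries each, lettered A, B and C. The first arm received DMSO only, and the AKTi arm (labelled IPATA) received 0.25 µM ipatasertib. Cells of the EZH2i arm (labelled TAZ) received 1 µM tazemetostat, and those of the combination (labelled COMBO) received both inhibitors at these doses. Tazemetostat was started 6 days before the final dosing, all arms were then dosed in medium with 10% charcoal-stripped FBS, and RNA was taken after 24 hours. The EZH2 inhibitor thus acted for days longer than the AKT inhibitor, so the sizes of both single-agent effects are given side by side and are not matched in time. The plates were seeded in triplicate, and nothing says that the replicates were independent cultures, so each p-value measures the spread between these libraries, which may be technical.

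Nearly all mitochondrial proteins are encoded in the nucleus, made in the cytosol and imported. The TOM complex of the outer membrane holds receptors that bind the precursors and a pore that lets them pass. Behind it the routes part. Small TIM chaperones carry hydrophobic carriers through the intermembrane space to the TIM22 complex, the CHCHD4 disulfide relay traps cysteine-rich proteins there, and the TIM23 complex passes proteins with a presequence across the inner membrane. A motor built around HSPA9 (mitochondrial Hsp70) pulls these into the matrix, the peptidase made of PMPCA and PMPCB cuts off the presequence, and the HSPD1 and HSPE1 chaperonin folds the product. Cancer cells with high biosynthetic activity depend on this route for the enzymes of the tricarboxylic acid cycle and respiratory chain subunits.

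The libraries held 14133755 to 22276417 reads on genes. Levels are given in CPM, read counts divided by the TMM-scaled library total and brought to a common total, and errors are SD over 3 libraries unless a standard error (SE) is named. Prostate luminal markers were abundant, with 1338 to 3980 CPM for KLK3 and 289 to 588 CPM for HOXB13. Markers of other cells were near 0, with CD3E at 0 in all 12 libraries, summed immune markers at 0.134 to 1.48 CPM and summed neuroendocrine markers at 1.46 to 2.98 CPM. The summed CPM of the 8 luminal markers given here was 3559 to 3667 in DMSO, 5381 to 5512 with AKTi, 6222 to 6416 with EZH2i and 7889 to 8092 in the combination, and the part of this shift in the results that follow was not tested. Summed stromal markers, carried by COL1A1, were 4.94 to 7.47 CPM in DMSO, 4.70 to 6.67 with AKTi, 17.2 to 19.6 with EZH2i and 11.2 to 15.5 in the combination. Summed endothelial markers, carried by VWF, were 2.16 to 2.95, 3.48 to 4.34, 5.73 to 6.50 and 5.07 to 7.38 CPM in the same order, and the part of either in the results was not tested. In bulk RNA, fewer cells of a type and less RNA per cell cannot be told apart.

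In DMSO the levels of the members differed widely when divided by gene length. HSPD1, the Hsp60 subunit of the matrix chaperonin, was the highest at 532 CPM per kb, which is the mean of 3 libraries on the scale of CPM per kilobase of listed gene length. TOMM20, the presequence receptor, followed at 137 CPM per kb, TIMM10 at 134, TIMM8B at 131 and TIMM23 at 104. The lowest tested members were TOMM5 at 0.499, PAM16 at 1.84 and TIMM23B at 3.43 CPM per kb. These values rest on the authors' assignment of reads to genes. Of the 34 members, 24 share part of their span with another listed gene, 18 of them with a protein-coding gene, and the strand setting of the counting is not given in the sources used here. PAM16 overlaps 5 listed genes and TOMM5 overlaps a pair of same-strand genes, so the low counts of both are uncertain.

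The whole set took a smaller share of the reads in every treated arm. The summed level of the members was 6141 to 6371 CPM in the DMSO libraries, 4966 to 4988 with AKTi, 2907 to 2920 with EZH2i and 2583 to 2715 in the combination. The arms did not overlap. HSPD1 alone made up 35.5% to 37.0% of the sum in DMSO and 25.8% to 27.1% in the combination, and without it the sum was still 3939 to 4109 CPM in DMSO and 1917 to 1979 CPM in the combination.

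Each gene was then compared between arms with edgeR's quasi-likelihood test over 16646 genes, and a gene was called at a Benjamini-Hochberg adjusted p-value under 0.05. With AKTi, 23 of 32 members were lower than in DMSO, where 21.9% of all genes tested were lower, and 0 were higher, where 20.6% of all genes were. Their median log2 fold change was -0.36, against 0.01 over all genes tested. With EZH2i, 29 of 32 were lower (31.5% of all genes) and 0 were higher (32.6% of all genes), with a median of -0.96 against 0.03. In the combination, 29 of 32 were lower than in DMSO (35.2% of all genes) and 0 were higher (38.0% of all genes). Their median was -1.29 against 0.06. These 3 counts of 0 were also 0 at an unadjusted p-value under 0.05 and with DESeq2. Under scaling by library size or upper quartile, however, TOMM34 was called higher with AKTi (log2 0.17 under both) and PMPCB higher in the combination (0.14 and 0.13). These comparisons share the DMSO libraries.

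**Figure D1:**
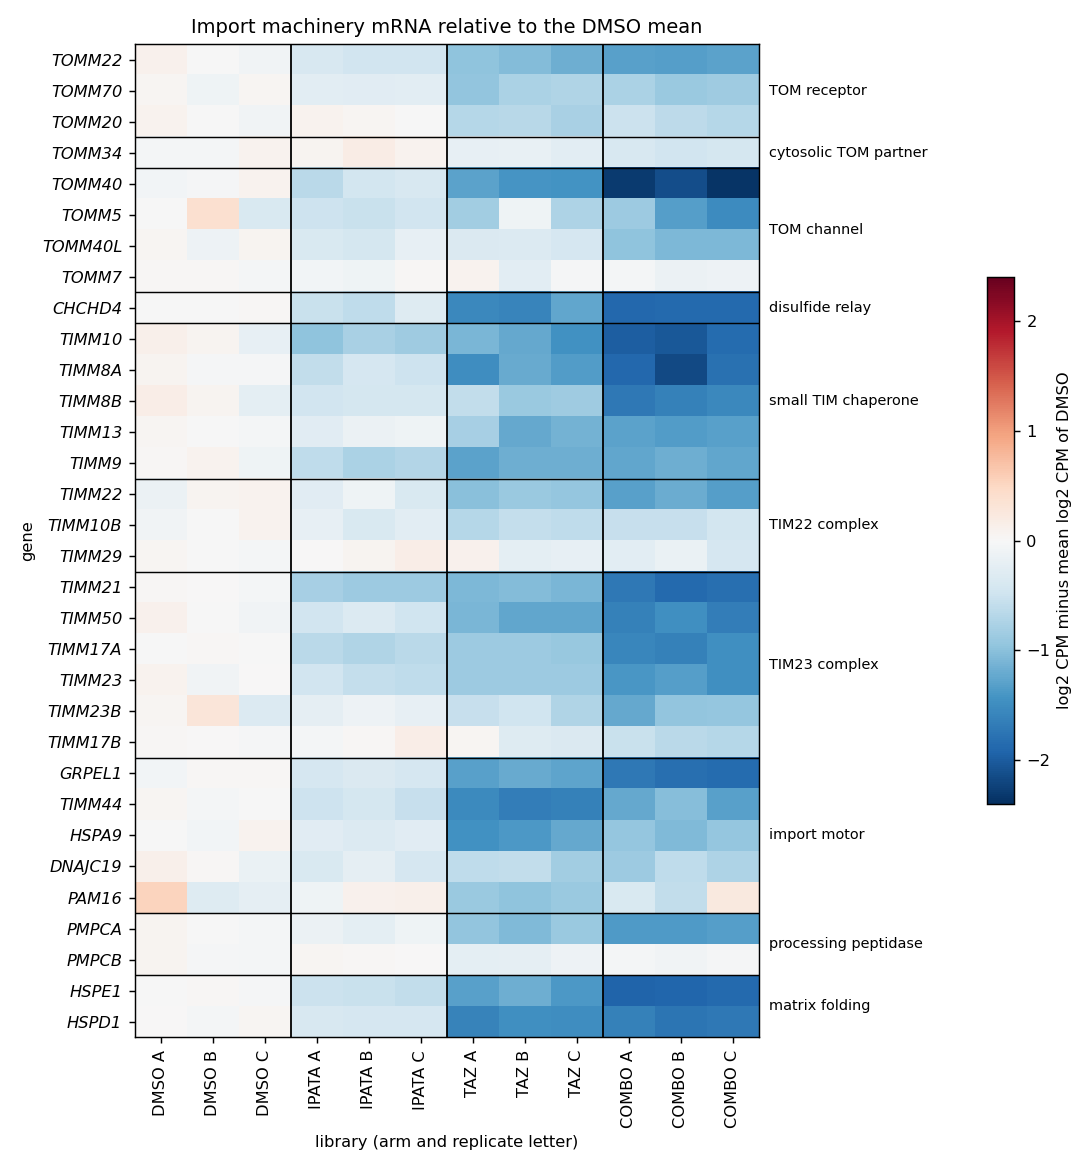
Heat map of 32 import genes (rows, grouped by role) in 12 libraries (columns, by arm and replicate letter), colored by log2 CPM minus the mean log2 CPM of DMSO. The combination columns are the darkest blue for most rows, with a median over members of -1.25 to -1.30 per library, while TOMM7 and PMPCB stay near 0 and TIMM44 and HSPA9 are darkest in the EZH2i columns.

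The combination was also set against each single agent. Relative to AKTi alone, 28 of 32 members were lower (32.1% of all genes) and 0 were higher (32.1% of all genes), with a median of -0.86 against 0.04. The number higher was also 0 at an unadjusted p-value under 0.05 and with DESeq2. The 4 without a call were TOMM7, PMPCB, PAM16 and TOMM5. Relative to EZH2i alone, 20 members were lower (25.7% of all genes), 3 were higher (21.1% of all genes) and 9 were not called, with a median of -0.35 against -0.01. The 3 that were higher, HSPA9, TIMM44 and PAM16, all belong to the import motor. With DESeq2 PMPCB, which is not of the motor, was called higher too (0.125). Under library size scaling, upper quartile scaling or the filter of 10 counts in every library, PMPCB and TOMM20 both were. The PAM16 call was lost without combination replicate C. In all, 20 of 32 members were lower in the combination than in each of the other 3 arms. The share of all genes with this joint pattern was not counted, and it cannot exceed the 25.7% that were lower than with EZH2i.

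**Figure D2:**
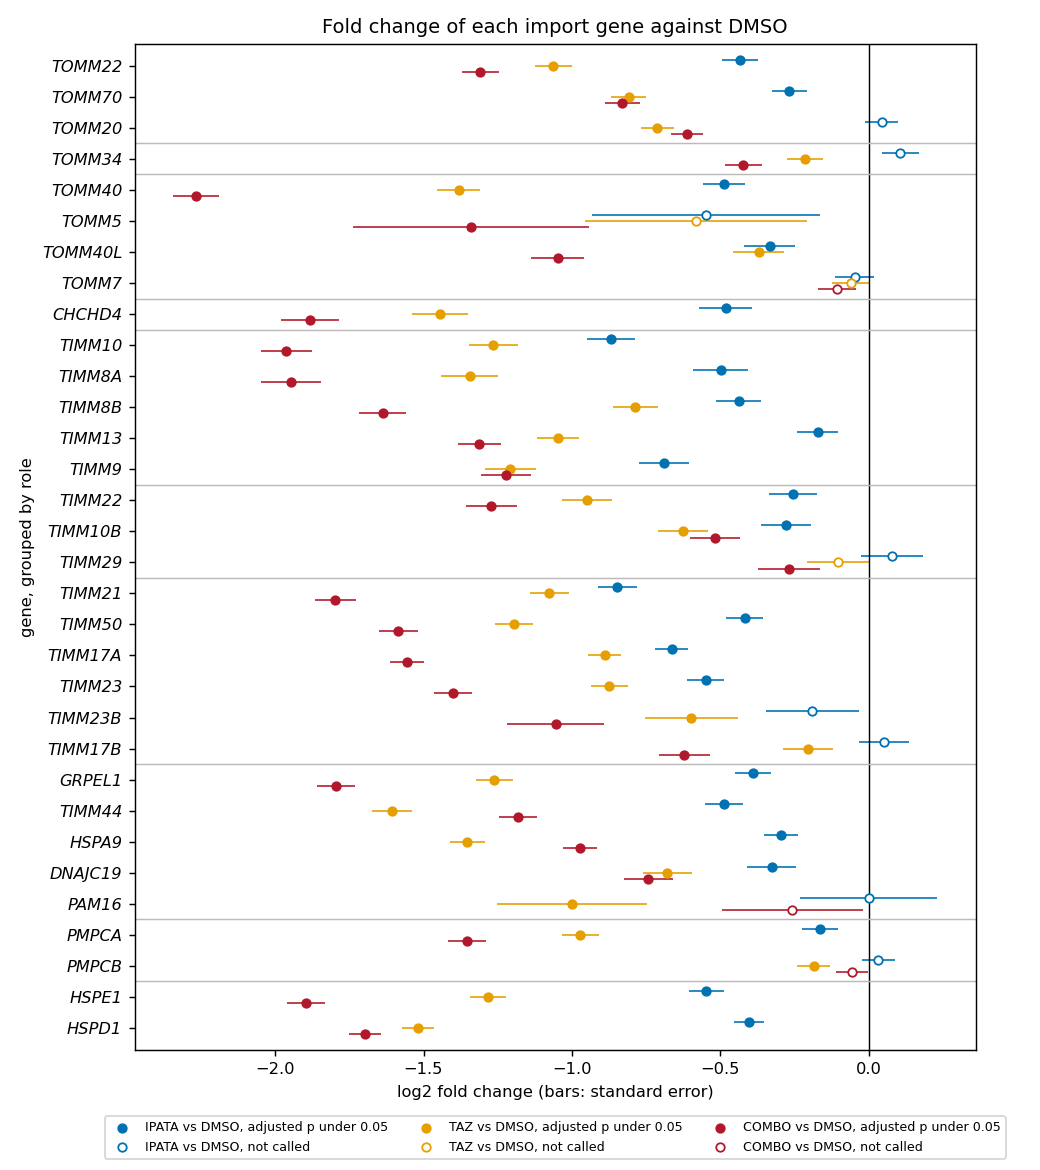
Log2 fold change against DMSO (x axis) for 32 import genes (y axis, grouped by role) with AKTi (blue, IPATA), EZH2i (orange, TAZ) and the combination (red, COMBO). Bars are SE, filled points had an adjusted p-value under 0.05 and open points did not. For each of the 32 genes the orange point lies to the left of the blue point, and TOMM40 has the lowest red point at -2.27. The red points of PMPCB (-0.06) and TOMM7 (-0.11) are above 0 when libraries are scaled by size or upper quartile.

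The choice of scaling moved all genes together. Over all genes tested, the median of the combination relative to DMSO was 0.06 under TMM, 0.26 under library size scaling and 0.25 under upper quartile scaling, and the TMM factors ran from 0.929 in DMSO to 1.09 in the combination. The members' median lay 1.35 below that of all genes on the log2 scale under each of the 3, with values of -1.29, -1.09 and -1.10 for the members themselves. Under both other scalings the number of members lower than in DMSO was 20 in place of 23 with AKTi, without PMPCA, TIMM13 and TIMM22, and 26 in place of 29 with EZH2i, without PMPCB, TOMM34 and TIMM17B. In the combination it was 28 in place of 29, without TIMM29, and against AKTi alone 26 in place of 28, without TIMM10B and TIMM29. Against EZH2i alone it stayed at 20 under library size scaling and was 17 under upper quartile scaling, without HSPD1, TIMM23B and TOMM34.

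The 3 tested receptors of the outer membrane were all lower in the combination than in DMSO (35.2% of all genes), but to different extents. TOMM22, the central receptor that ties TOMM20 to the pore, was at 194, 181 and 170 CPM in DMSO, 139, 131 and 133 with AKTi, 92.7, 88.1 and 80.5 with EZH2i and 73.6, 72.1 and 74.2 in the combination. The 4 arms did not overlap, and the combination differed from DMSO by log2 -1.31 ± 0.062 (SE, adjusted p = 1.5e-20). TOMM20, which reads presequences, was at 516, 483 and 459 CPM in DMSO and 516, 502 and 484 with AKTi. It was at 301, 306 and 283 CPM with EZH2i and 338, 313 and 302 in the combination. Its DMSO and AKTi libraries overlapped, as did its EZH2i and combination libraries, and both arms with EZH2i lay below both arms without it (log2 -0.71 ± 0.056 SE for EZH2i against DMSO, adjusted p = 8.4e-14). TOMM70, the receptor for carrier precursors, gave -0.27 with AKTi, -0.81 with EZH2i and -0.83 in the combination. TOMM34, a cytosolic cochaperone of the TOM route, was not called with AKTi (0.11 ± 0.062 SE) and fell by 0.42 in the combination.

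The pore subunits differed widely in response. TOMM40 (chr19:44890569-44903689, hg38, + strand), the channel itself, stood at 113, 116 and 124 CPM in DMSO and 75.3, 86.3 and 90.4 with AKTi. It stood at 48.4, 44.2 and 43.3 CPM with EZH2i and 23.7, 26.9 and 22.8 in the combination, so that the arms stepped down without overlap. The combination mean was 20.8% of the DMSO mean, and its log2 fold change of -2.27 ± 0.077 (SE, adjusted p = 7.1e-25) was the lowest of the 32 members. TOMM40 was also lower in the combination than with EZH2i (-0.88 ± 0.080 SE, adjusted p = 1e-11). TOMM7 (chr7:22812628-22822852, - strand), a small subunit of the same complex, was at 132, 131 and 125 CPM in DMSO, 123, 119.9 and 132 with AKTi, 137, 109 and 126 with EZH2i and 124, 117 and 118 in the combination. These arms lay close together, and TOMM7 was not called in any of the 6 comparisons (combination against DMSO -0.11 ± 0.064 SE, adjusted p = 0.13, with a sign that turned under library size scaling, 0.09, and upper quartile scaling, 0.08). It was called lower in that comparison without any single AKTi library (-0.15 to -0.16) or EZH2i replicate A (-0.16). TOMM5, another small subunit, was at 9 to 32 reads per library and was called only in the combination against DMSO (-1.34 ± 0.40 SE).

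CHCHD4 (chr3:14112077-14124870, - strand), the oxidoreductase of the disulfide relay also known as MIA40, was at 48.1, 48.2 and 49.6 CPM in DMSO and 33.4, 31.7 and 39.4 with AKTi. It was at 16.6, 16.2 and 20.5 CPM with EZH2i and 13.1, 13.2 and 13.3 in the combination. No arm overlapped another, and the combination mean was 27.1% of that in DMSO (log2 -1.88 ± 0.098 SE, adjusted p = 3.1e-19). The SD of its 3 combination libraries was 0.107 CPM.

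All 5 small TIM chaperones were lower than in DMSO in each treated arm, with medians of -0.50 with AKTi, -1.21 with EZH2i and -1.64 in the combination. Of all genes tested, 21.9%, 31.5% and 35.2% were lower in these comparisons, with medians of 0.01, 0.03 and 0.06. The TIMM13 call with AKTi (adjusted p = 0.045, edgeR) ended with DESeq2 (-0.18), under library size and upper quartile scaling (-0.11 under both) and without DMSO replicate A (-0.14), AKTi replicate A (-0.13) or any single combination library (-0.17). TIMM10 (chr11:57528463-57530803, - strand), which forms a hexamer with TIMM9, was at 113, 108 and 90.9 CPM in DMSO, 53.0, 60.3 and 57.3 with AKTi, 48.4, 44.0 and 37.7 with EZH2i and 26.3, 25.1 and 28.6 in the combination. It had the lowest log2 fold change of all members with AKTi (-0.87 ± 0.082 SE) and fell by 1.96 in the combination. TIMM8A (chrX:101345659-101349196, - strand), the partner of TIMM13 and the gene of Mohr-Tranebjaerg deafness-dystonia syndrome, was at 47.0, 44.0 and 44.1 CPM in DMSO, 29.7, 34.2 and 31.7 with AKTi, 15.9, 19.5 and 17.7 with EZH2i and 12.2, 9.97 and 12.9 in the combination. Both genes stepped down from arm to arm, and neither had libraries that overlapped between arms. TIMM9 behaved otherwise at the last step, with 48.9, 50.9 and 44.5 CPM in DMSO, 31.6, 28.2 and 29.5 with AKTi, 19.8, 21.2 and 21.3 with EZH2i and 20.3, 21.3 and 20.1 in the combination. Its EZH2i and combination libraries lay in the same range, and their difference was -0.02 ± 0.089 (SE, adjusted p = 0.91).

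The TIM22 complex, which inserts carrier proteins into the inner membrane, had 3 of 3 members lower in the combination than in DMSO. Of all genes tested, 35.2% were lower, and the spread of the 3 members was wide. TIMM22, its channel, went from 50.4 ± 3.98 CPM in DMSO to 42.2 ± 3.93 with AKTi, 26.1 ± 0.969 with EZH2i and 20.9 ± 1.06 in the combination (log2 -1.27 ± 0.086 SE, adjusted p = 6.6e-16). TIMM10B and TIMM29, its peripheral subunits, had -0.52 ± 0.084 (SE) and -0.27 ± 0.106 (SE, adjusted p = 0.023). The TIMM29 call ended under library size scaling (-0.07), upper quartile scaling (-0.08) and the filter of 10 counts in every library (-0.20), and without DMSO replicate A (-0.25) or combination replicate C (-0.21).

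The TIM23 complex, the presequence translocase, had 6 of 6 members lower in the combination than in DMSO, than with AKTi and than with EZH2i. Of all genes tested, 35.2%, 32.1% and 25.7% were lower in these comparisons taken singly. TIMM21, which docks the complex to TOM and to the respiratory chain, was at 103, 101 and 97.3 CPM in DMSO, 57.8, 55.1 and 54.6 with AKTi, 47.3, 48.7 and 46.9 with EZH2i and 30.6, 27.5 and 28.5 in the combination. TIMM50, the receptor that takes presequences from TOM, went from 167 ± 10.4 CPM in DMSO to 125 ± 7.53, 72.8 ± 4.47 and 55.5 ± 3.59 in the AKTi, EZH2i and combination arms. In the combination the log2 fold changes against DMSO were -1.80 ± 0.068 (SE) for TIMM21 and -1.58 ± 0.066 (SE) for TIMM50. TIMM23, the channel, was at 134, 119.5 and 129 CPM in DMSO, 93.0, 85.5 and 83.5 with AKTi, 69.7, 69.9 and 69.4 with EZH2i and 48.2, 50.7 and 45.9 in the combination. TIMM23 and TIMM23B are near-identical copies on chromosome 10, so reads may have been split between them, and the TIMM23B values (10.5 ± 2.27 CPM in DMSO and 5.01 ± 0.568 in the combination) are uncertain. The call of TIMM23B in the combination against EZH2i (-0.46) ended under upper quartile scaling (-0.39) and without EZH2i replicate B (-0.41) or combination replicate A (-0.36).

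In the import motor, 3 of 5 members were higher in the combination than with EZH2i, 1 was lower and 1 was not called. Of all genes tested, 21.1% were higher and 25.7% lower in this comparison. HSPA9 (chr5:138553756-138575724, - strand), the Hsp70 at its center, was at 613, 590.1 and 660.3 CPM in DMSO and 513, 494 and 512 with AKTi. It was at 226, 239.9 and 264 CPM with EZH2i and 325, 298 and 326 in the combination. Every combination library thus lay below DMSO and AKTi and above EZH2i, and the combination exceeded EZH2i by log2 0.38 ± 0.058 (SE, adjusted p = 1e-06) while staying -0.97 ± 0.057 (SE) from DMSO. TIMM44 (chr19:7926718-7943920, - strand), which anchors HSPA9 to the channel, was at 159, 151 and 154 CPM in DMSO and 109, 116 and 106 with AKTi. It was at 53.3, 48.7 and 50.4 CPM with EZH2i and 65.8, 76.0 and 62.8 in the combination. The order of its arms was that of HSPA9, with log2 0.42 ± 0.068 (SE, adjusted p = 2.3e-06) for the combination over EZH2i.

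PAM16 (chr16:4331549-4355607, - strand), the J-like regulator of the motor, was at 6.13, 3.39 and 3.60 CPM in DMSO, 3.91, 4.55 and 4.59 with AKTi, 2.21, 2.10 and 2.21 with EZH2i and 3.24, 2.77 and 4.95 in the combination. The EZH2i libraries lay below all others, the combination overlapped DMSO and AKTi, and the gene was higher in the combination than with EZH2i by log2 0.74 ± 0.26 (SE, adjusted p = 0.016). That call rests on combination replicate C, without which it was 0.47 with an adjusted p of 0.18, and the estimate against DMSO (-0.26 ± 0.24 SE, adjusted p = 0.33) became 0.05 without DMSO replicate A. At 33 to 91 reads per library PAM16 was the least deeply counted of the 5 motor genes. GRPEL1, the exchange factor that resets HSPA9, went the other way, with 125.6 ± 4.86 CPM in DMSO, 95.9 ± 2.05 with AKTi, 52.4 ± 1.97 with EZH2i and 36.2 ± 1.80 in the combination. It was lower in the combination than with EZH2i (-0.53 ± 0.066 SE, adjusted p = 1.8e-08). DNAJC19, a J protein of the motor, was lower than in DMSO in all treated arms, and its combination and EZH2i libraries overlapped.

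The subunits of the processing peptidase moved apart. PMPCA (chr9:136410570-136423761, + strand), the substrate-binding subunit, was at 129, 122 and 119 CPM in DMSO and 111, 104 and 114 with AKTi. It was at 63.6, 58.9 and 66.2 CPM with EZH2i and 48.1, 47.8 and 49.1 in the combination (-1.35 ± 0.063 SE against DMSO, adjusted p = 1.1e-20). The catalytic partner PMPCB (chr7:103297422-103329511, + strand) was at 161, 150.0 and 148 CPM in DMSO, 158, 156 and 154 with AKTi, 130.1, 131 and 141 with EZH2i and 148, 144 and 149 in the combination. The PMPCB libraries of the combination overlapped those of DMSO, with a difference of -0.06 ± 0.055 (SE, adjusted p = 0.36). Without EZH2i replicate A it was called lower (-0.11). Under library size scaling the estimate became 0.14 and under upper quartile scaling 0.13, both past the threshold.

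The matrix chaperonin was the most abundant member and fell in every treated arm. HSPD1 (chr2:197486581-197516737, - strand) was at 2262, 2190 and 2317 CPM in DMSO and 1719, 1705 and 1697 with AKTi. It was at 745, 817 and 801 CPM with EZH2i and 736, 666 and 685 in the combination. HSPE1 (chr2:197499994-197503457, + strand), the Hsp10 lid of the same machine, was at 157, 161 and 155 CPM in DMSO, 110.2, 109 and 104 with AKTi, 63.9, 70.0 and 60.5 with EZH2i and 41.7, 42.3 and 43.1 in the combination. HSPE1 stepped down in each arm without overlap. HSPD1 fell by 1.52 ± 0.053 (SE, adjusted p = 8.8e-24) with EZH2i and differed in the combination from EZH2i by -0.18 ± 0.052 (SE, adjusted p = 0.0047), a call that ended under upper quartile scaling (-0.12) and without EZH2i replicate C (-0.15). Both genes have many processed copies in the genome, and how such reads were assigned is not given in the sources used here.

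HSPD1 and HSPE1 are read away from each other, from annotated starts that lie back to back. The stretch between these starts is shown because both genes share it and both fell. It is chr2:197500275-197500378 of GRCh38.p14 (RefSeq), printed on the + strand with HSPE1 to its right, and the capitals mark the E-box CACGTG.
HSPD1-HSPE1 interval: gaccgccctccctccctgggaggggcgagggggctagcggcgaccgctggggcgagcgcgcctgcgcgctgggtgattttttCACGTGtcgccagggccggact
The 104 bases hold 1 E-box, which is palindromic and so the same on both strands. The 100 bases before the annotated start of HSPA9 (chr5:138575402-138575501, - strand, same source) are shown beside them because HSPA9, which was higher in the combination than with EZH2i, carries the same motif, here in capitals.
HSPA9: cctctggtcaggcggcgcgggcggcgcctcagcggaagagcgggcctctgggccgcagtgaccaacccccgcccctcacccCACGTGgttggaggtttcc
These are the RefSeq starts. The spans in the count table begin further upstream for HSPD1, HSPE1, HSPA9 and both TIMM17 genes. RefSeq windows from 250 bases before to 50 bases after the start were matched for 31 of the 34 members. GRPEL1, TOMM5 and TIMM8B had none in the table. CACGTG was found in 6 of the 31 members (19.4%), namely HSPA9, HSPD1, HSPE1, TIMM10, TIMM8A and TOMM20, and in 12.8% of the 10939 tested genes that had a window and 7.26% of all 35116 windows. HSPD1 and HSPE1 were both counted for the 1 E-box of the stretch between them. The NRF1 core CGCATGCG was in CHCHD4, TIMM9 and TOMM7, which is 9.68% of the members, against 4.51% of the tested genes. The heat shock element pair GAANNTTC was in HSPD1 alone (3.23% of the members) and in 6.53% of the tested genes. HSPD1 had more than 1 window, and this match lies in that of another annotated start (chr2:197499791-197500090) than the one printed above. Motifs were searched on both strands, and a match is a description of letters, not a bound site. The members with an E-box include genes that stepped down in each arm, such as TIMM10, and TOMM20, which was not called with AKTi. Whether the E-box bears on these responses was not tested.

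Whether both inhibitors together gave more or less than the sum of their log2 effects was tested as an interaction on the log2 scale, that is the change with AKTi in cells given EZH2i less the change with AKTi in cells not given it. It was negative, that is a larger fall than the sum, for 5 of 32 members (17.5% of all genes), positive, a smaller fall than the sum, for 6 (10.7% of all genes), and not called for 21. The members' median was 0.01, against -0.05 over all genes, and it changed sign between settings. The negative members were TIMM17B (-0.47 ± 0.12 SE, adjusted p = 0.0029), TIMM8B (-0.41 ± 0.11), TOMM40 (-0.40 ± 0.11), TOMM40L (-0.34 ± 0.12) and TOMM34 (-0.31 ± 0.088). The positive ones were TIMM44 (0.91 ± 0.093 SE, adjusted p = 1e-09), HSPA9 (0.67 ± 0.081, adjusted p = 3.4e-08), TIMM9 (0.67 ± 0.12, adjusted p = 4.9e-05), TIMM10B (0.39 ± 0.12), TOMM70 (0.25 ± 0.084) and HSPD1 (0.22 ± 0.074). PAM16 had an estimate of 0.74 ± 0.35 (SE) that did not pass (adjusted p = 0.11).

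**Figure D3:**
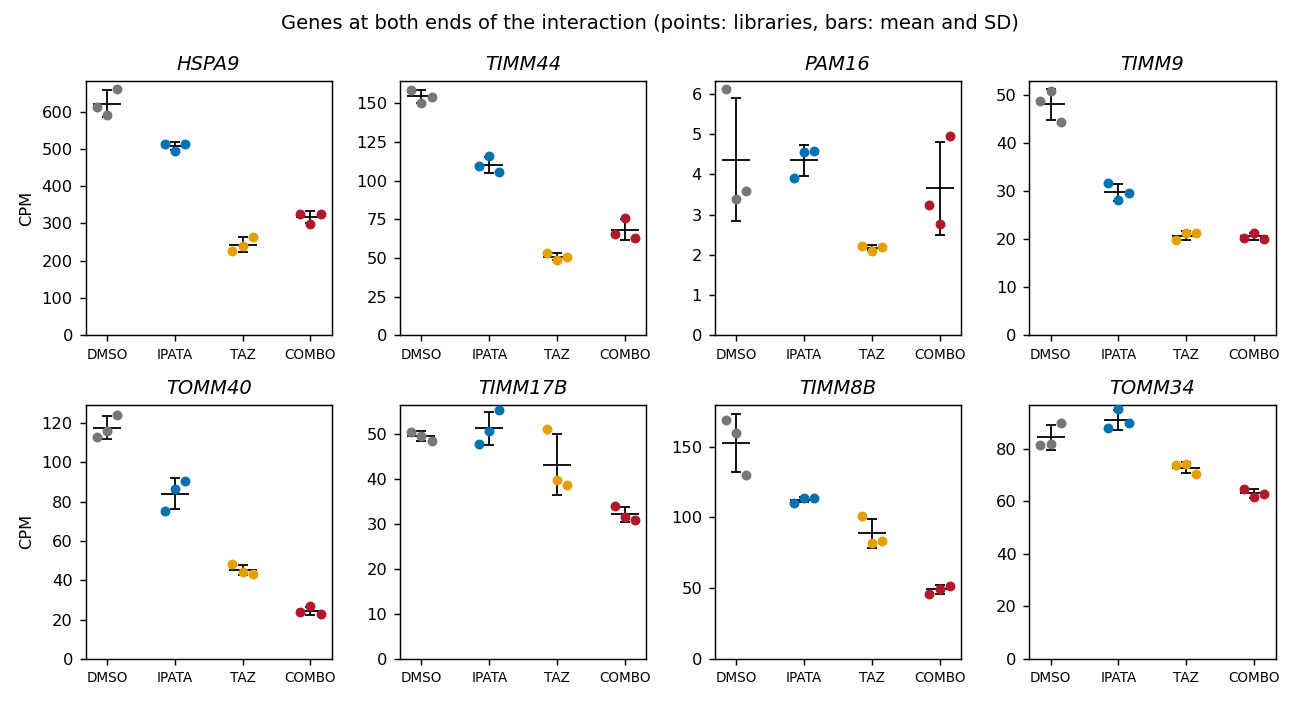
CPM (y axis, from 0) in each library of the 4 arms (x axis) for 8 import genes, with points for libraries and black bars for the mean and SD of 3. In the upper row HSPA9 and TIMM44 are lowest in the EZH2i arm (TAZ), PAM16 is lowest there too with a wide spread elsewhere, and TIMM9 is level between EZH2i and the combination. In the lower row TOMM40, TIMM17B, TIMM8B and TOMM34 are lowest in the combination.

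Several of these calls were sensitive to single libraries. Without DMSO replicate C the interaction of TIMM10B was 0.33 and not called, and without AKTi replicate B that of TOMM34 was -0.25 and not called. The interaction of HSPD1 was lost without replicate A of the AKTi, EZH2i or combination arm, with estimates of 0.16 to 0.28 over all libraries left out in turn. That of TOMM70 was lost without DMSO replicate A or C or without replicate A of any treated arm (0.16 to 0.33). That of TOMM40L was lost without DMSO replicate B, AKTi replicate C, or replicate B or C of the EZH2i or combination arm (-0.40 to -0.24). Those of TIMM44, HSPA9, TIMM9, TOMM40, TIMM8B and TIMM17B were kept in every setting in which the interaction was fitted. TIMM8B, the partner of TIMM13 in an alternative small TIM, was at 169, 159.8 and 129.9 CPM in DMSO, 111, 114 and 113 with AKTi, 101, 81.8 and 83.6 with EZH2i and 46.0, 49.4 and 51.8 in the combination, where its libraries lay far below the rest.

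Paralogs and partner subunits were compared within each library as a difference of log2 CPM, so that scaling cancels. There were 6 pairs and 30 comparisons between arms, each by a two-sided exact permutation test. With 3 libraries in each arm this exact test cannot go below p = 0.1, so no pair could pass 0.05, and the values are given with their overlap. TIMM17A and TIMM17B, alternative subunits of the TIM23 complex, differed by 1.72, 1.77 and 1.77 in DMSO in favor of TIMM17A, by 1.16, 1.01 and 0.96 with AKTi, by 0.83, 1.19 and 1.20 with EZH2i and by 0.72, 0.79 and 0.96 in the combination. All 9 treated libraries lay below all DMSO libraries (exact p = 0.1 for each arm). In CPM, TIMM17A went from 167 ± 2.31 in DMSO to 106 ± 3.18, 90.2 ± 1.25 and 56.9 ± 2.81 in the AKTi, EZH2i and combination arms. TIMM17B was at 50.5, 49.6 and 48.4 in DMSO, 47.9, 50.6 and 55.3 with AKTi, 51.0, 39.9 and 38.6 with EZH2i and 34.1, 31.5 and 30.8 in the combination. In the combination every TIMM17B library lay below every DMSO library (-0.62 ± 0.086 SE, adjusted p = 5.4e-08). Its call with EZH2i (-0.20) ended under library size (-0.06) and upper quartile scaling (-0.08), with 10 counts required in every library (-0.17), in the fit of only those arms (-0.20) and without DMSO replicate A (-0.19), EZH2i replicate B (-0.15) or EZH2i replicate C (-0.16).

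The sequences before both TIMM17 starts are shown because the paralogs share a role and differed in response. Capitals mark the CCAAT box or its reverse complement ATTGG. The first is chr1:201955263-201955502 (+ strand) and the second chrX:48897769-48897908 (- strand), both GRCh38.p14 from RefSeq and both ending at the base before the annotated start.
TIMM17A: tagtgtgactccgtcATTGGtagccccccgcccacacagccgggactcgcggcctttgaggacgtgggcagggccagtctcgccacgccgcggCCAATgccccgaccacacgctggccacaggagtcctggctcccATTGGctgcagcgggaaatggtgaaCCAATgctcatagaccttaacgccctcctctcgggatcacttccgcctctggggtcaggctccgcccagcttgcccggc
TIMM17B: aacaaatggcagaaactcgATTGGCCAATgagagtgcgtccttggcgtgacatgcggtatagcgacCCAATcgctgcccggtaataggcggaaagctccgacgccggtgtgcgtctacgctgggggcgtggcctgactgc
Over the whole window TIMM17A held 5 of these boxes, TIMM17B 3, TOMM40 5 and TOMM40L 3. The motif was in 9 of the 31 members with a window (29.0%) and in 42.8% of the tested genes. All 4 genes of these paralog pairs held the motif, and their log2 fold changes in the combination against DMSO ranged from -0.62 to -2.27. A link between the motif and the response was not tested.

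**Figure D4:**
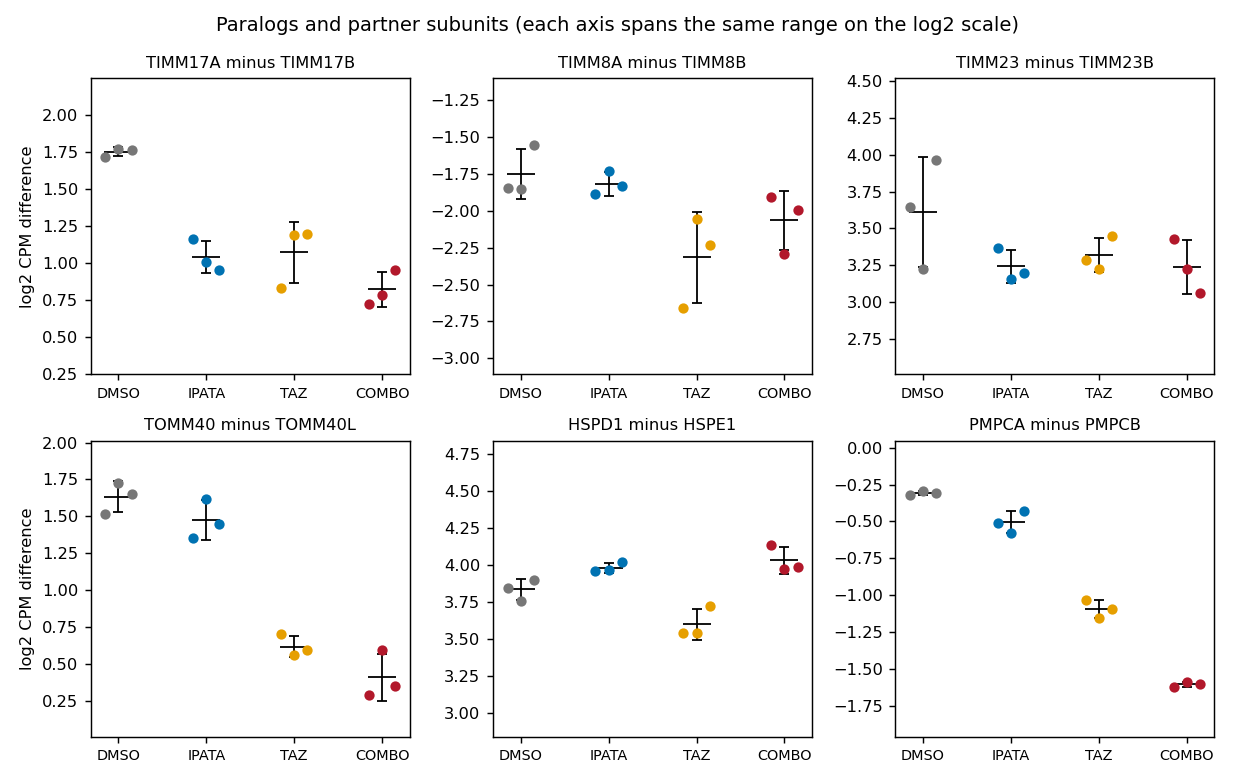
Difference of log2 CPM (y axis, each spanning the same range) for 6 gene pairs in each library of the 4 arms (x axis), with points for libraries and black bars for the mean and SD of 3. TIMM17A minus TIMM17B and PMPCA minus PMPCB drop in all treated arms, the latter least with AKTi. TOMM40 minus TOMM40L drops with EZH2i and in the combination, and TIMM23 minus TIMM23B overlaps between arms.

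TOMM40 and its paralog TOMM40L drew together. The difference was 1.52, 1.73 and 1.65 in DMSO, 1.36, 1.62 and 1.45 with AKTi, 0.70, 0.56 and 0.60 with EZH2i and 0.29, 0.59 and 0.35 in the combination. The AKTi libraries overlapped DMSO and the other arms lay below both (exact p = 0.1). TOMM40L itself went from 37.9 ± 2.60 CPM in DMSO to 30.1 ± 2.59 with AKTi, 29.4 ± 0.717 with EZH2i and 18.3 ± 0.893 in the combination.

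PMPCA minus PMPCB was -0.32, -0.29 and -0.31 in DMSO, -0.51, -0.58 and -0.43 with AKTi, -1.03, -1.16 and -1.09 with EZH2i and -1.62, -1.59 and -1.60 in the combination. The 4 arms stepped down without overlap, and the SD of the combination was 0.015. HSPD1 minus HSPE1 was 3.85, 3.76 and 3.90 in DMSO, 3.96, 3.96 and 4.02 with AKTi, 3.54, 3.54 and 3.72 with EZH2i and 4.14, 3.97 and 3.99 in the combination. Here the EZH2i libraries lay below DMSO, and the AKTi and combination libraries lay above it and overlapped each other. The listed span of HSPE1 lies within that of HSPD1 on the other strand. With the strand setting not given, the HSPE1 counts and this difference are uncertain. TIMM8A minus TIMM8B was -1.75 ± 0.17 in DMSO and lay lower in every EZH2i library (-2.32 ± 0.31) and combination library (-2.07 ± 0.20), whereas TIMM23 minus TIMM23B overlapped between all arms compared. TOMM20 and TOMM20L were not compared as a pair because of the low count of TOMM20L, which had 0 reads in the 3 EZH2i libraries.

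Other import factors and the mitochondrial proteases were taken from lists for comparison, which were chosen with earlier results of these data known. Of 20 further import factors 18 were tested, and 16 were lower (35.2% of all genes) and 0 higher (38.0% of all genes) in the combination than in DMSO, with a median of -0.67. The number lower was 13 under library size scaling, upper quartile scaling and the filter of 10 counts in every library. At an unadjusted p-value under 0.05 the number higher was 1 (MTX3), and with DESeq2 it was 0. TRAP1, the mitochondrial Hsp90, fell by 1.89 (from 236 ± 11.2 to 63.8 ± 3.40 CPM), MTCH2, an outer membrane insertase, by 1.41 and ROMO1, a small inner membrane protein of the TIM23 route, by 1.34. At the other end were IMMP2L, a subunit of the inner membrane peptidase (0.20 ± 0.12 SE, adjusted p = 0.14), MTX3, a metaxin (0.15 ± 0.070 SE, adjusted p = 0.060), and MIPEP, an intermediate peptidase (-0.16 ± 0.059 SE, adjusted p = 0.015). IMMP2L and MTX3 were called higher under library size scaling (0.40 and 0.34) and without combination replicate B (0.32 and 0.20).

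All 9 proteases were lower in the combination than in DMSO (35.2% of all genes), with a median of -0.46. The number was 6 under library size or upper quartile scaling, 7 with 10 counts in every library and 7 without combination replicate A. CLPP, the catalytic subunit of the matrix protease ClpXP, fell by 1.21, LONP1, the matrix Lon protease, by 1.06 and AFG3L2, a subunit of the inner membrane AAA protease, by 0.97. The smallest differences were those of CLPX, the unfoldase of ClpXP (-0.22), OMA1, a stress-activated protease (-0.17), and SPG7, the partner of AFG3L2 (-0.16). GRPEL2, a second exchange factor for HSPA9 and singled out after its values were seen, was at 123 ± 1.64 CPM in DMSO, 81.5 ± 0.698 with AKTi, 39.9 ± 4.75 with EZH2i and 76.1 ± 2.90 in the combination. Its interaction was 1.52 ± 0.096 (SE, adjusted p = 3.5e-15), and it was higher in the combination than with EZH2i by log2 0.93, whereas its paralog GRPEL1 was lower.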

How the data were processed

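PolyA RNA libraries of C4.2B cells were analysed in 4 arms of 3, grouped by the treatment in the labels. The deposited counts are whole reads per gene, which the authors made with STAR and HTSeq on hg38, whose versions and settings are not given in the sources used here. Sequencing was done at either of a pair of facilities, and which libraries went to which is not given in the sources used here, so no term for it could enter the fit. A table of signal values, also deposited by the authors, was checked to be these counts over a DESeq2 size factor for the library (tolerance 0.0001) and was not tested. The count table also lists gene lengths and spans, which belong to no sample.

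Counts were filtered with filterByExpr of edgeR 4.0.16 (minimum count 10, minimum total 15), which left 16646 genes, scaled by TMM and fitted over all 12 libraries with the quasi-likelihood test in R 4.3.3. P-values were adjusted by Benjamini-Hochberg over all genes tested, with a threshold of 0.05. The SE is the log2 fold change over the root of its F statistic. Pairs were compared on log2 CPM with a prior count of 2 by exact permutation (two-sided, scipy 1.17.1). Other settings were DESeq2 1.42.0, library size or upper quartile scaling, 2 other filters on low counts, fits of only the compared arms, the replicate letter as a block and the omission of each library in turn. The fit was tested on simulated data.

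At 14133755 to 22276417 reads per library, counting error is small for most members. Replicates of an arm differed by more than sampling noise (chi-square of 2.631 to 8.089 per gene), so none was counted as a duplicate. The members, the comparison lists and the motifs were chosen with earlier results of these data known. Values are given in every library for the members with the 5 lowest and 3 highest log2 fold changes in the combination, any member called against the majority, the 3 lowest and 3 highest interactions and the genes of each pair, and other members are given in groups. Of the comparison lists the 3 lowest and 3 highest are named. Promoter windows came from RefSeq (GRCh38.p14). One luminal marker is not reported here and is left out of the summed markers.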

Additional observations from a re-analysis of the deposited data

Results flagged for a closer look

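The effect of 1 inhibitor differed with and without the other for 11 of 32 members, by the interaction term of the edgeR quasi-likelihood fit on the log2 scale. It was negative for 5 of them (17.5% of all genes tested) and positive for 6 (10.7%). TIMM17B (-0.47), TIMM8B (-0.41), TOMM40 (-0.40), TOMM40L (-0.34) and TOMM34 (-0.31) were lower in the combination than the sum of both single-agent effects gives. TIMM44 (0.91), HSPA9 (0.67), TIMM9 (0.67), TIMM10B (0.39), TOMM70 (0.25) and HSPD1 (0.22) were higher than that sum. Of the latter, TIMM44 and HSPA9 were also called higher in the combination than with EZH2i alone, without overlap of libraries. TIMM10B did not overlap either, with 25.35, 25.37 and 27.12 CPM against 22.9, 24.84 and 24.35 with EZH2i, but was not called (0.11). TIMM9 and TOMM70 were not called there, and HSPD1 was called lower (-0.18). Groups of 3 libraries are too small to test for single outlying libraries.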

How the results depend on the processing

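Of 143 calls over the 6 comparisons, 124 were kept under each of the 19 alternatives that gave them a value, and none changed sign. The 11 interaction calls have no fit of only the compared arms, and TOMM5 has no value with 10 counts required in every library. Upper quartile scaling lost 12 calls, library size scaling 9 and DESeq2 1. Under library size or upper quartile scaling the number of members higher was 1 in place of 0 with AKTi (TOMM34) and 1 in place of 0 in the combination (PMPCB, 0.14 and 0.13), and the number higher in the combination than with EZH2i was 5 in place of 3, adding PMPCB and TOMM20, as it also was with 10 counts required in every library. Of the further import factors, 2 in place of 0 were higher in the combination under both scalings and with that filter (MTX3 and IMMP2L), and 0 to 2 with 1 library left out. With every gene of at least 1 count kept, 3 in place of 6 members had a positive interaction. Signs turned for PMPCB (also 0.012 with 10 counts in every library), TOMM7 (0.091 and 0.078 under the scalings) and PAM16 in the combination (-0.531 to 0.046 with 1 library left out), and for the median interaction (-0.001 with every gene kept, -0.022 to 0.047 with 1 library left out). Under library size and upper quartile scaling the median of all genes in the combination against DMSO moved too, from 0.06 to 0.26 and 0.25. Under another filter, other genes enter both the scaling and the adjustment. The part of each in these shifts was not tested. With 1 library left out, the number of members lower in the combination was 28 to 31. Calls with AKTi were lost for TIMM13 without DMSO A, AKTi A or any combination library, for TIMM22 without DMSO C or AKTi C, for PMPCA without DMSO A or AKTi B and for TIMM10B without DMSO C, leaving 21 to 23 members lower. Of the 210 pair values none moved beyond the SD. For those with 1 library left out this was fixed in advance, because leaving out 1 of 3 libraries cannot shift a mean that far. Only the values with another prior count (0.5 in place of 2) could have moved.

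The replicate letters did not pair the libraries: deviations of same-letter libraries from their arm means correlated at -0.058 to 0.069 over 18 pairs, with 0 over 0.1. A replicate block kept all 143 calls, with 29 members lower in the combination. TOMM6 and TOMM20L are limited by their counts, and for TOMM20L calls made with every gene kept rest on at most 8 reads per library.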
